A study of Sus scrofa with 48 samples.

Results

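The enzymes of the tricarboxylic acid (TCA) cycle CS, IDH2, IDH3A, IDH3B, OGDH, SUCLA2, SUCLG1, FH and MDH2 were described in the longissimus muscle of 48 growing pigs. Probes were taken when the array annotation gave the gene symbol as the name, or in round brackets in the description, and were kept where 12 or more arrays showed them well above background. Of the 9 genes, 8 had a probe, and these 8 had 33 of the 60305 distinct probes of the array. All 33 passed the filter, each on 48 of 48 arrays. OGDH, the first component of the 2-oxoglutarate dehydrogenase complex, had no probe under this rule. The 1 probe named FH carried an accession that the RefSeq gene table for Sscrofa11.1 assigns to a different gene, so fumarate hydratase had no probe of its own either, and the data describe 7 enzymes through 32 probes.

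The TCA cycle runs in the mitochondrial matrix. It oxidises the acetyl units that come from carbohydrate, fat and amino acids to carbon dioxide and passes the electrons, as NADH and reduced flavin, to the respiratory chain. In skeletal muscle its enzymes are more abundant in oxidative than in glycolytic fibres, and citrate synthase is widely used as a measure of mitochondrial content. The longissimus of the pig is a mostly fast, glycolytic muscle.

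The pigs were barrows of lines selected in opposite directions for residual feed intake (RFI), the difference between the feed a pig eats and the feed predicted from its maintenance and growth. Low RFI pigs (RFIneg) are the more feed efficient, and high RFI pigs (RFIpl) the less efficient. All were fed ad libitum, with either a high fat, high fiber diet (HF) or a low fat, low fiber diet (LF), in 4 groups of 12 pigs. Each pig had 1 one-colour array, and every group was spread evenly over 6 slides of 8 arrays and 2 scan days. A difference between the lines holds everything that separates them, selected or not, which cannot be told apart here. Transcripts were measured in whole muscle, in which fewer cells of a type and less RNA per cell cannot be told apart. The muscle genes ACTA1, CKM, MB, DES, TNNT3 and MYLPF were well above background on all 48 arrays.

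Levels below are log2 processed signals after the mean of the tested probes was subtracted from each array. A difference of 1 is a doubling, and levels are compared only within a probe. Each gene is represented by its lead probe, the one with the highest mean signal, and adjusted p-values come from limma over all 42125 tested probes with Benjamini-Hochberg adjustment.

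Of the 19 member probes whose accession was in the RefSeq table, the other 18 matched their own gene. The probe named FH is counted among the 33, but its values are not described.

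Probe sequences in 2 sets bear on what was measured, and are printed 5′ to 3′ as the array design gives them. Their genome positions are not given here.

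The first set concerns IDH3A, the catalytic alpha subunit of NAD-dependent isocitrate dehydrogenase. Its lead probe shared 41 bases, in capitals, with a probe named TBC1D2B, a gene that lies 3 genes away from IDH3A in the RefSeq gene order:
IDH3A, O10239: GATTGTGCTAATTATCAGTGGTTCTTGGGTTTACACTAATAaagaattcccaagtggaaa
TBC1D2B, A_72_P352168: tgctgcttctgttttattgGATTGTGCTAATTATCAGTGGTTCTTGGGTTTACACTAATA
The IDH3A probe A_72_P498784 shared 44 bases with the same TBC1D2B probe and also its accession. Which of these genes the pair reads was not settled here, so the other 4 IDH3A probes are given beside it.

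The second set is that of IDH3B, the beta subunit of the same enzyme and the member whose probes passed the test between lines. The first 2 of its 4 probes share the 32 bases in capitals, and the others overlap neither these nor each other:
IDH3B, A_72_P098771: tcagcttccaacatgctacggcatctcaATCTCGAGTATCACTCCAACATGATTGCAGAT
IDH3B, A_72_P165726: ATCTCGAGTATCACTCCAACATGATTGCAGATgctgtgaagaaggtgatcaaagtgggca
IDH3B, O14568: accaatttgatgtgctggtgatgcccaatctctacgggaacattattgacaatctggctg
IDH3B, A_72_P449452: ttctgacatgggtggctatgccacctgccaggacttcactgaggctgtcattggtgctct

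IDH3B transcripts were lower in high RFI than in low RFI pigs over both diets, by 8.69% on the linear scale for the lead probe, and no other member passed the test. All 4 IDH3B probes were called in this comparison, and 0 of the 28 probes of the other 6 enzymes. This call depended on the processing, as the values below show. Over all tested probes, 16.4% were called between lines and 9.85% were called lower in high RFI. The members' share, 4 of 33 probes or 12.1%, was near that background, so the cycle's genes as a group did not stand apart from the array. The median line difference of the 33 probes was -0.05, beside -0.03 over all tested probes.

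**Figure D1:**
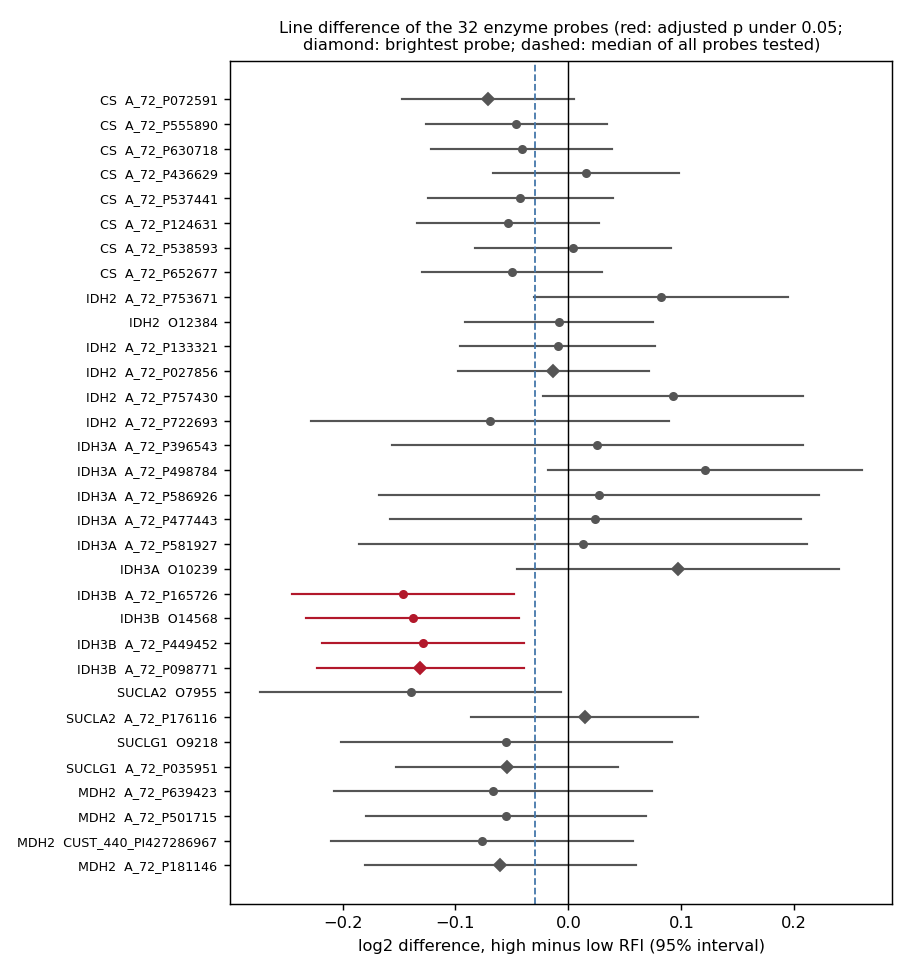
Log2 difference between high and low RFI pigs (x axis, 95% interval) for the 32 probes of the 7 enzymes (y axis), with diamonds for the lead probe of each gene, red for an adjusted p under 0.05 and a dashed line at the median of all tested probes, -0.03. The 4 IDH3B probes lie between -0.15 and -0.13 and are the only ones in red, while the 6 IDH3A probes lie at or above 0.01.

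The lead IDH3B probe A_72_P098771 ranged in LF-fed low RFI pigs from 5.68 to 6.12 with a median of 5.82. In LF-fed high RFI pigs it ranged from 5.44 to 5.92 with a median of 5.63. In HF-fed low RFI pigs it ranged from 5.65 to 6.13 with a median of 5.86, and in HF-fed high RFI pigs from 5.30 to 5.99 with a median of 5.81. The groups overlapped on both diets, and the LF-fed high RFI pigs had the lowest median. Of the 24 high RFI pigs, 18 were below the median of the low RFI line, and 20 of the 24 low RFI pigs were above the median of the high RFI line. The mean level was 5.85 ± 0.13 (SD, n = 24) in low RFI and 5.72 ± 0.17 (SD, n = 24) in high RFI pigs. The difference was -0.13 with a standard error of 0.05, a 95% interval of -0.22 to -0.04 and an adjusted p of 0.040 by limma.

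The other 3 IDH3B probes gave differences of -0.15, -0.14 and -0.13, with adjusted p by limma of 0.032 to 0.039. Across pigs they followed the lead probe, with r of 0.86 to 0.97 among the 4 probes once group means were subtracted, so they are repeated readings of 1 transcript and not separate evidence. The mean of the 4 probes was also called.

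**Figure D2:**
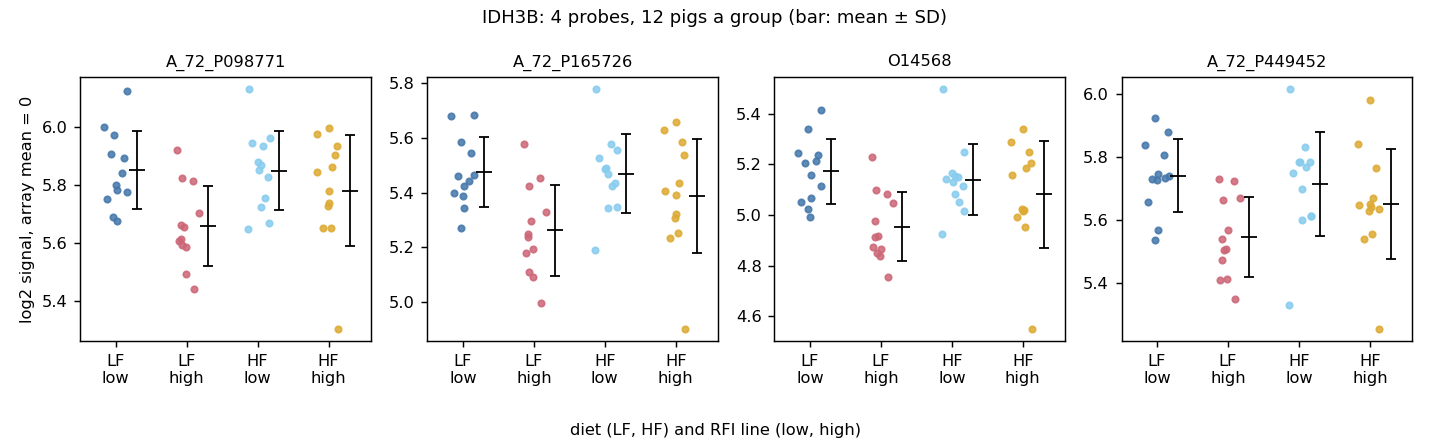
Level of each of the 4 IDH3B probes (y axis, log2 signal with the array mean at 0) in the 12 pigs of each diet and line (x axis), with 1 point per pig and bars for the mean ± SD. In every panel the LF-fed high RFI pigs are lowest on average, and all groups overlap.

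The IDH3B difference held its direction under every alternative tried but not its call. The lead probe was not called with quantile normalization (-0.09, adjusted p = 0.10 by limma), with normexp background correction (-0.11, adjusted p = 0.12), with all probes tested (-0.13, adjusted p = 0.13) or in the deposited log2 table (-0.14, adjusted p = 0.058). Over 12 settings, including the main one, the 4 probes were called in 5 to 8. Within the first scan day the lead probe differed by -0.20 and within the second by -0.06, with 12 pigs per line each, and within slides by between -0.31 and -0.01. All 6 slides had the same direction.

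By diet, the IDH3B lead probe differed between lines by -0.19 on the LF diet (95% interval -0.32 to -0.06, adjusted p = 0.095 by limma) and by -0.07 on the HF diet (-0.20 to 0.06, adjusted p = 0.53). Neither passed the threshold. The test of the difference between the diets, the interaction, gave 0.12 (HF minus LF) with a 95% interval of -0.06 to 0.31 and an adjusted p of 0.999 by limma, so a larger line difference on one diet was not shown.

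Citrate synthase (CS), which joins acetyl-CoA to oxaloacetate and starts the cycle, had 8 probes and 0 calls. Its lead probe A_72_P072591 had a median of 6.60 in low RFI pigs on either diet, against 6.46 in LF-fed and 6.57 in HF-fed high RFI pigs. Of the 24 high RFI pigs, 19 were below the low RFI median, but the ranges, 6.34 to 6.81 and 6.26 to 6.78, nearly coincided. The difference was -0.07 (95% interval -0.15 to 0.00, adjusted p = 0.19 by limma). The 8 CS probes differed by between -0.07 and 0.02.

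IDH2, the NADP-dependent mitochondrial isocitrate dehydrogenase, did not differ between lines beyond the spread among pigs. Its lead probe A_72_P027856 had medians of 8.01 and 7.96 in LF-fed low and high RFI pigs and of 7.98 in both lines with HF feeding. The 4 groups covered 7.68 to 8.35, and the difference was -0.01 (95% interval -0.10 to 0.07, adjusted p = 0.86 by limma). Its sign turned under 5 alternatives, including quantile normalization. The 6 probes gave differences of -0.07 to 0.09, none called. The dimmest of them, A_72_P722693, correlated at only 0.29 to 0.35 with the others across pigs.

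IDH3A had 6 probes, none called, and unlike IDH3B its probes all lay on the side of higher signal in high RFI pigs. The lead probe O10239, whose name is uncertain, had medians of 5.49 and 5.58 in LF-fed low and high RFI pigs and of 5.56 and 5.59 with HF feeding. Its difference was 0.10 (95% interval -0.05 to 0.24, adjusted p = 0.36 by limma). The other 4 probes, whose bases were not compared with the TBC1D2B probe, differed by 0.01 to 0.03. By lead probe IDH3A was the most variable of the 7 enzymes among pigs of a group, with an SD of 0.25, against 0.15 for IDH3B. Its probes fell into the same 2 sets by behaviour as by sequence. Within the set of 4 they correlated at 0.98 to 0.99 over the 48 pigs, within the pair at 0.97, and between the sets at 0.60 to 0.68.

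The 2 subunits of succinyl-CoA ligase, the enzyme that forms a nucleoside triphosphate directly in the cycle, showed no called difference. SUCLA2, the beta subunit of the ATP-forming enzyme, was measured by A_72_P176116 with group medians of 6.38 to 6.46 and a line difference of 0.01 (95% interval -0.09 to 0.11, adjusted p = 0.88 by limma). Its second probe, O7955, differed by -0.14 (adjusted p = 0.14), and the 2 probes correlated at only 0.66 across pigs. SUCLG1, the alpha subunit shared with the GTP-forming enzyme, had medians of 5.55 to 5.65 by its lead probe A_72_P035951 and a difference of -0.05 (95% interval -0.15 to 0.04, adjusted p = 0.47 by limma). The SUCLG1 probe O9218 was dim, at a mean log2 signal of 5.81 before centring, and correlated at 0.53 with the lead probe.

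MDH2, the mitochondrial malate dehydrogenase that closes the cycle, had 4 probes and 0 calls. The lead probe A_72_P181146 had medians of 5.92 and 5.84 in LF-fed low and high RFI pigs and of 5.85 and 5.86 with HF feeding. The difference was -0.06 (95% interval -0.18 to 0.06, adjusted p = 0.52 by limma), and the 4 probes, which correlated at 0.94 to 0.98, lay between -0.08 and -0.06.

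Without the probe named FH, 4 of 32 probes were called between lines, or 12.5%.

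**Figure D3:**
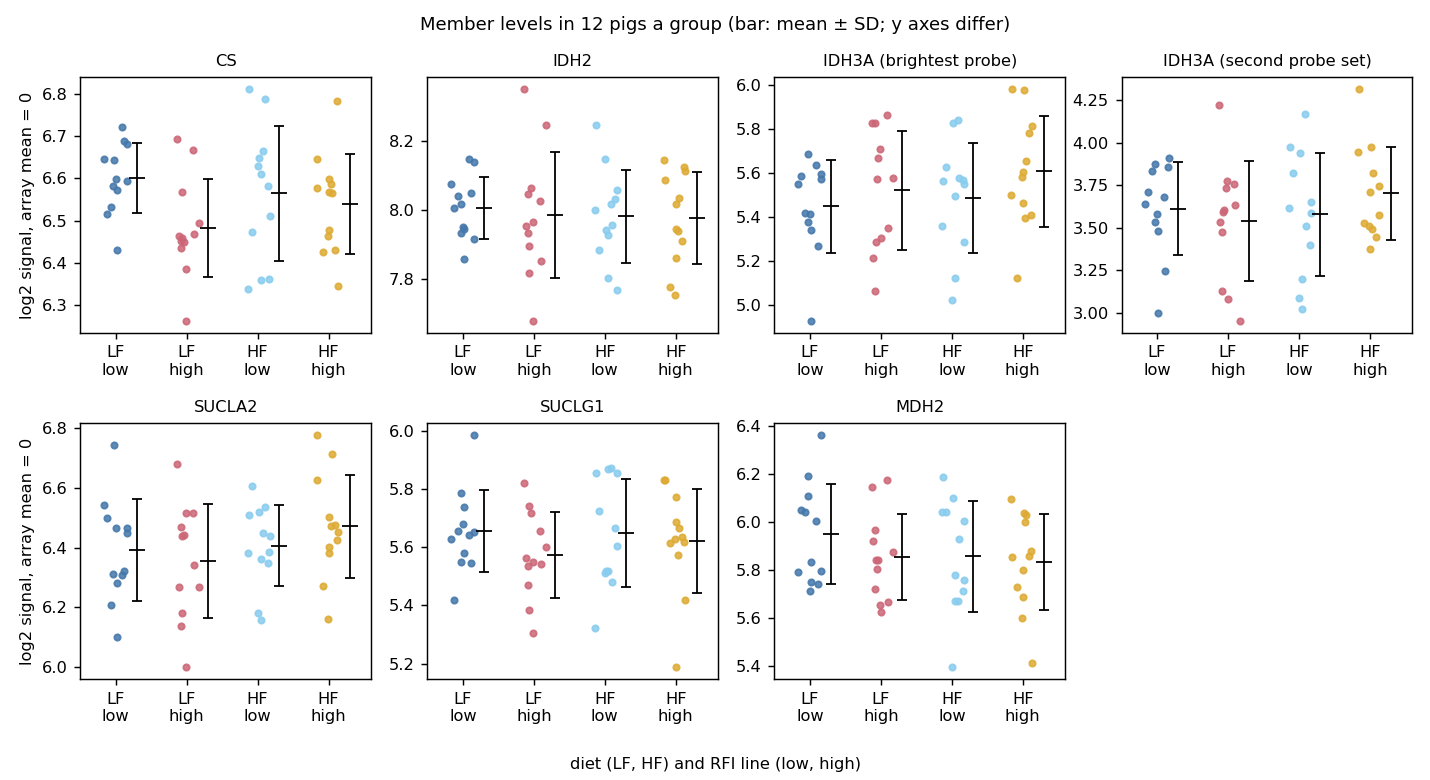
Level (y axis, log2 signal with the array mean at 0, scales differ) of the lead probes of CS, IDH2, IDH3A, SUCLA2, SUCLG1 and MDH2, and of 1 probe of the second IDH3A set, in the 12 pigs of each diet and line (x axis). Bars are the mean ± SD. The groups overlap in every panel.

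Within the single diets no member probe was called between lines by limma, beside a background of 6.39% of all probes with HF and 2.47% with LF feeding. At an unadjusted p under 0.05 the counts were 0 of 33 with HF and 6 of 33 with LF feeding, beside 24.2% and 16.5% of all tested probes. The 6 were the 4 IDH3B probes, the CS lead probe and the probe named FH. On the LF diet 28 of the 33 differences were negative, with CS, IDH3B, SUCLA2, SUCLG1 and MDH2 negative in all their probes, and on the HF diet 18 were, beside 57.4% and 57.3% of all tested probes. Without the probe named FH, 27 of 32 were negative on the LF diet and 18 of 32 on the HF diet.

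The diets did not separate the enzymes. Between HF and LF over both lines, 0 of 33 probes were called by limma and 0 had an unadjusted p under 0.05, beside 0.42% of all tested probes called and 13.1% at that unadjusted p. The lead probes differed by between -0.06 for MDH2 and 0.07 for SUCLA2, and every 95% interval of the 32 enzyme probes lay between -0.21 and 0.29. In the low RFI line the counts were again 0 called and 0 unadjusted, beside 0.199% and 11.6% of all probes. In the high RFI line they were 0 and 0, beside 0% and 5.47%, and the interaction of line and diet also gave 0 and 0, beside 0% and 4.45% of all probes. IDH3B came nearest in the high RFI line, with a lead probe 0.12 higher on the HF diet (95% interval -0.01 to 0.25, adjusted p = 0.90 by limma).

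How well a probe repeats itself can be read from 3 pairs of probes printed on the array with identical sequences. The within-group SD of the difference between such spots was 0.07 for CS, 0.04 for IDH2 and 0.04 for IDH3A. The SD among pigs of a group was 0.14 for these CS probes, 0.14 for IDH2 and 0.32 for IDH3A. Such pairs show the noise of spots and not that of labelling or hybridisation. The IDH3B line difference of -0.13 was smaller than its within-group SD of 0.15.

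Other genes of the pathway came from a list of 37 genes, of which 29 had 108 kept probes. Between lines 10 probes of 6 genes were called by limma, 8 lower and 2 higher in high RFI pigs. Their share, 9.26%, was below the 16.4% of all tested probes, and the median difference of the 108 probes was 0.01.

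Of the genes called lower, 3 are described. IDH3G, the gamma subunit of the enzyme that holds IDH3A and IDH3B, had 1 probe with a difference of -0.18 (adjusted p = 0.028 by limma), called under 8 of 12 settings. SDHB, the iron-sulfur subunit of succinate dehydrogenase, was called lower on 3 of its 9 probes, by 0.13 to 0.14, each under 5 to 7 settings. All 9 SDHB probes lay below 0, from -0.14 to -0.08. PDK1, a kinase that switches off pyruvate dehydrogenase, was called lower on 1 of 3 probes (-0.23, adjusted p = 0.0026 by limma), under 11 of 12 settings. All 3 PDK1 probes lay below 0, from -0.24 to -0.15.

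Both genes called higher act around the cycle and not in it. PDP1, the phosphatase that switches pyruvate dehydrogenase on, had 1 probe, higher by 0.36 in high RFI pigs (95% interval 0.13 to 0.58, adjusted p = 0.022 by limma). The PDP1 probe was called under all 11 settings that held it. ME1, the cytosolic malic enzyme that supplies NADPH for fat synthesis, was called higher, by 0.41, on 1 of 3 probes (A_72_P306288, adjusted p = 0.0017 by limma), under 12 of 12 settings. All 24 low RFI pigs lay below the high RFI median on that probe, yet the brighter ME1 lead probe differed by 0.02, so the probes of ME1 disagree. DLST and DLD, the other components of the complex that OGDH belongs to and named here for that reason after their values were seen, had 0 of 3 and 0 of 10 probes called. Between diets 0 of the 108 probes were called by limma and 14 had an unadjusted p under 0.05, beside 13.1% of all tested probes.

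**Figure D4:**
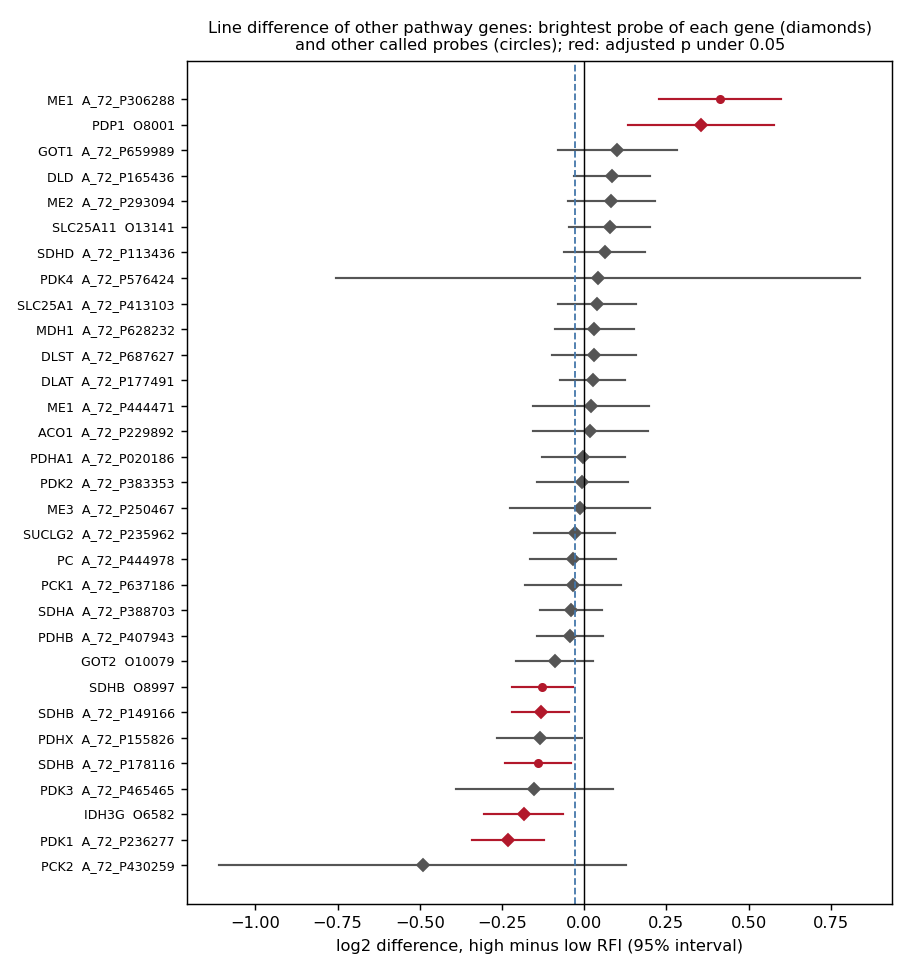
Log2 difference between high and low RFI pigs (x axis, 95% interval) for the lead probes of other genes of the pathway (diamonds) and their other called probes (circles), in red where the adjusted p is under 0.05, with a dashed line at the median of all tested probes. IDH3G, SDHB and PDK1 lie below 0 and PDP1 and 1 ME1 probe above, while the lead probe of ME1 lies at 0.02.

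Across the 48 pigs, with group means subtracted, the enzymes varied together to a degree that depended on how arrays were scaled. Of 28 pairs of lead probes, 18 had an adjusted p under 0.05 in a two-sided permutation test of 100000 permutations within groups. All 21 pairs of the 7 enzymes were positively correlated, with r from 0.25 to 0.72 and a median of 0.38, and 17 of the 21 passed. With quantile normalization 4 of the 28 pairs passed, the median r of the enzyme pairs was 0.20, and 19 of 21 were positive.

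The 4 pairs that passed under both scalings were IDH3A with SUCLA2, CS with IDH3B, IDH3B with SUCLG1, and CS with IDH2. IDH3A and SUCLA2 had the highest correlation, at r of 0.72 and rho of 0.72, with p of 1e-05 each by permutation, the smallest that 100000 permutations can give, and an adjusted p of 0.00014 for r by permutation. It was 0.68 without the 2 pigs farthest from the median, 0.70 with slide means removed, and 0.54 and 0.80 within the scan days. The IDH3A lead probe is the one that shares bases with the TBC1D2B probe, so the pairs were also computed with A_72_P396543 of the other set, a choice made after seeing the data. IDH3A and SUCLA2 then had r of 0.72 and, with quantile normalization, 0.60, again the highest of the pairs, and 19 of the 28 pairs passed, or 5 with quantile normalization. CS and IDH3B had r of 0.65, CS and IDH2 0.59, and IDH3B and SUCLG1 0.63. IDH3B and MDH2, at 0.53 over all pigs, had 0.80 within the first scan day and -0.15 within the second.

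**Figure D5:**
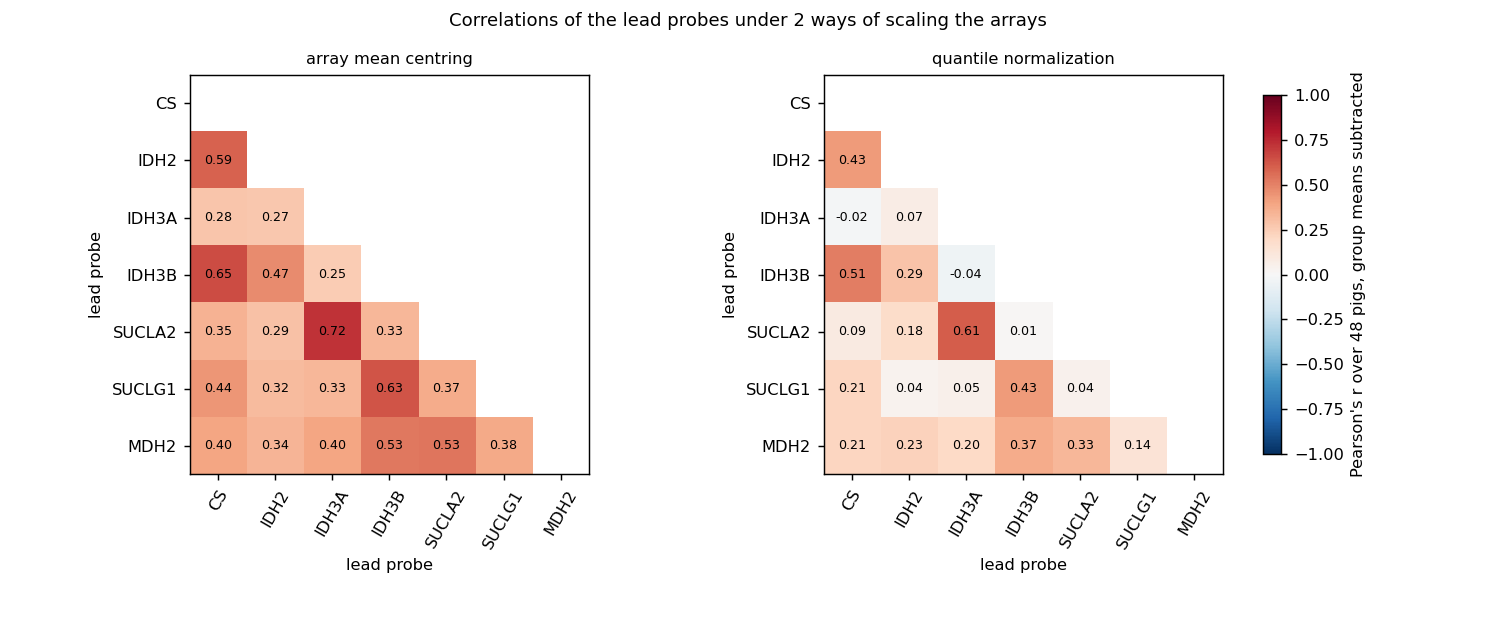
Pearson's r over 48 pigs between the lead probes of the 7 enzymes, group means subtracted, after centring each array on its mean (left) and after quantile normalization (right), in colour and as printed values. The right panel is paler, with the enzyme pairs at a median of 0.20 against 0.38, and the pair of IDH3A and SUCLA2 stands highest in both. IDH3A is drawn by its lead probe, whose name is uncertain, and with a probe of the other IDH3A set the pair had r of 0.72 (left) and 0.60 (right).

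Transcripts of the respiratory chain had the patterns most like the mean of the members' lead probes. Among 8833 gene symbols, the 8 highest were ATP5B (r = 0.88 across 48 pigs), COX5B (0.86), SDHA (0.85), CYC1 (0.84), ATP5C1 (0.82), ATP5G1 (0.82), COQ9 (0.81) and NDUFV2 (0.81), each by its best probe and beside a median of 0.13. ATP5B, ATP5C1 and ATP5G1 encode subunits of ATP synthase, COX5B of cytochrome c oxidase, CYC1 of complex III and NDUFV2 of complex I. COQ9 serves the synthesis of coenzyme Q. SDHA encodes a subunit of complex II, the succinate dehydrogenase, which is also an enzyme of the cycle and was on the list of other pathway genes. These genes were picked for their likeness and share the arrays' scaling, so the values are a description. Without the probe named FH, 7 of the 8 remained.

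By lead probe, no correlation of the enzymes with the slow myosin gene MYH7 or with PPARGC1A, a coactivator of mitochondrial genes, passed the test. Over 16 relations, 0 passed after adjustment by the permutation test, and 1, IDH2 with MYH7 (r = 0.29, p = 0.041 by permutation), had an unadjusted p under 0.05. For the 7 enzymes r lay between -0.06 and 0.29 with MYH7 and between 0.05 and 0.23 with PPARGC1A. With the mean of each gene's probes, IDH2 and MYH7 passed (r = 0.39, adjusted p = 0.032 by permutation).

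Other features of the arrays moved with line beside IDH3B, and their part in its difference was not tested. Over all tested probes 16.4% were called between lines, and 9.85% were called lower in high RFI pigs. Of 42 probes of 7 fast fibre genes, 17 (40.5%) were called and all were lower in high RFI pigs. The mean level of their lead probes ranged from 9.40 to 9.80 in low and from 9.32 to 9.69 in high RFI pigs with LF feeding, and from 9.49 to 9.90 and from 9.19 to 9.66 with HF feeding. TNNT3, 1 of these genes, is also in the muscle list, of which 12 of 43 probes (27.9%) were called, all lower. Of 42 probes of 6 slow fibre genes 1 was called, higher. Higher calls in high RFI pigs came from 8 of 26 adipocyte probes (30.8%), all of FABP4, from 3 of 9 immune (33.3%) and 4 of 15 fibroblast probes (26.7%). By limma 0 of 12 endothelial and 0 of 2 erythroid probes were called, each with 0 at an unadjusted p under 0.05, beside 31.03% of all tested probes. Mean marker levels overlapped between all groups, from -0.08 to 2.01 for adipocyte, -1.96 to -0.37 for immune and 3.35 to 4.55 for fibroblast genes, and 1 gene each of the slow fibre, erythroid and immune lists had no kept probe. Of 13 probes of 6 regulators of mitochondrial genes, 2 (15.4%) were called, both lower and both of PPARD. That share was near the 16.4% called over all tested probes.

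Among bright probes a larger share was called lower in high RFI pigs. Among the 4213 brightest of the tested probes, which held 21 of the 33 member probes, the median line difference was -0.08 and 23.97% of probes were called lower, against -0.02 and 8.28% in the rest. The mean log2 signal of an array was 8.22 ± 0.16 (SD, n = 24) in low and 8.31 ± 0.18 (SD, n = 24) in high RFI pigs. With that mean as a covariate the IDH3B lead probe differed by -0.11 (adjusted p = 0.10 by limma), and with the fast fibre level as a covariate by -0.06 (adjusted p = 0.47). Both covariates come from the same arrays, differ between the lines themselves and were chosen after seeing the data. These fits therefore cannot tell what part either has in the IDH3B difference.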

How the data were processed

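Muscle RNA of 48 pigs was hybridised to one-colour 60-mer arrays. The authors deposited scanner values as spot intensity from Agilent Feature Extraction 10.7.3.1, and log2 values for 34472 probes. This second, deposited set of log2 values equals the log2 median spot signal minus each array's median, and served as an alternative. Here the log2 of the processed signal, outlier spots left out, was averaged per probe and centred on each array's mean over 42125 probes well above background on at least 12 arrays, with 169 values missing. No spot of a non-control probe was saturated. Arrays of a group correlated at 0.97 to 0.99, and the number of arrays limits the precision.

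The 4 groups were fitted with limma 3.58.1 in R 4.3.3, after a test on simulated data, with a threshold of 0.05. Alternatives were the scaling, background correction, dim probe filter, outlier spots, slide, scan day, deposited table, gene means and, for the line, the variance analysis of the methods. Named genes were all members by lead probe, other called member probes, called pathway genes by smallest p, and the 8 genes most like the members. The members and lists were chosen with earlier results of these data known. The values of some genes that this rule names are not reported here.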

Additional observations from a re-analysis of the deposited data

How the results depend on the processing

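The members' count of 4 called probes between lines moved to 0 with quantile normalization and with all probes tested, and to 1 with normexp, with the deposited table (32 of the 33 probes) and with gene means, where 1 of 8 genes is the most that 4 probes of 1 gene can give. With covariates chosen after seeing the data, array brightness or the fast fibre level, it was 0. The count of 10 other pathway probes moved to 5 with quantile normalization, 5 with normexp, 4 with all probes tested, 6 in the deposited table and 3 of 29 genes with gene means. Of 28 correlated pairs, 18 moved to 4 with quantile normalization, and 0 relations with MYH7 and PPARGC1A moved to 1 with gene means. Counts within a diet, between diets and for the interaction were 0 under every alternative run. Signs turned only for differences that were not called in the main fit. For IDH2 between lines they were 0.0902 with quantile normalization, 0.0233 with normexp, 0.0123 with gene means, 0.00317 with array brightness and 0.0339 with the fast fibre level. For SUCLA2 the gene mean gave -0.0627, and with the fast fibre level SUCLG1 gave 0.0122 and MDH2 0.0276. Between diets IDH2 gave 0.00504 with the 75th percentile, 0.00602 in the deposited table and 0.00313 with gene means. Except where the construction shows it, the cause was not tested. No paired analysis was possible because pig numbers are not shared between groups.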
